A study of Mus musculus with 14 samples.

Results

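The 9 genes described here are 8 killer cell lectin-like receptor genes (*Klrk1*, *Klrc1*, *Klrc2*, *Klrd1*, *Klre1*, *Klrg1*, *Klrb1c*, and *Klrb1f*) and *Hcst*, the adaptor of the *Klrk1* product, out of 55450 genes of the mouse annotation. They were chosen by name, and a gene that a library did not list by name was taken from the assembled locus that shared at least 0.8 of their joint span with it. RNA-Seq of activated CD4+ T cells of C57BL/6 mice, 6 to 12 weeks old and of either sex, gave 14 samples in 2 experiments. In the first, 4 WT samples and 4 HDAC1cKO-HDAC2HET samples (HDAC1f/f HDAC2f/+ CD4-cre+) were cultured for 3 days with anti-CD3, anti-CD28, and IL-2. In the second, 3 WT samples and 3 HDAC1cKO samples (HDAC1f/f CD4-cre+) received 12 hours of anti-CD3 restimulation after 3 days of culture. *Cd4*-Cre deletes floxed alleles in developing T cells, both *Hdac1* alleles in either mutant and a single *Hdac2* allele in HDAC1cKO-HDAC2HET cells, and the WT mice were littermates. For the first experiment, naive (CD25-CD44loCD62L+) CD4+ T cells were sorted from pooled spleen and lymph nodes before culture. The antibodies used for depletion before this sort included anti-NK1.1 and anti-CD8α, and viable cells were sorted again before RNA extraction. For the restimulated cells the paper refers to an earlier study, so these steps are given for the first experiment only.

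Killer cell lectin-like receptors are membrane proteins of natural killer (NK) cells and of some cytotoxic T cells, and most are encoded in the NK gene complex of mouse chromosome 6. NKG2D, the *Klrk1* product, is an activating receptor for stress-induced MHC class I-like ligands. It has no signalling motif of its own and needs the adaptor DAP10, the *Hcst* product, which recruits phosphatidylinositol 3-kinase and GRB2. CD94 (*Klrd1*) pairs with NKG2A (*Klrc1*, inhibitory) or NKG2C (*Klrc2*, activating) to bind the MHC molecule Qa-1, KLRG1 is an inhibitory receptor for cadherins, and NK1.1 (*Klrb1c*) and NKR-P1F (*Klrb1f*) belong to the NKR-P1 family.

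In the annotation of build GRCm38 (mm10), 8 of the 9 genes lie on chromosome 6 and *Hcst* on chromosome 7. *Klrk1* spans chr6:129610323-129623864 on the minus strand, and *Klrd1*, the nearest gene past its 3′ end, spans chr6:129591782-129598775 on the plus strand. *Hcst* spans chr7:30417712-30419854 on the minus strand, 126 bp from *Tyrobp*, which encodes DAP12, the other adaptor that mouse NKG2D can use. On its start side *Hcst* lies head to head with *Nfkbid*, an inhibitor family member of NF-κB, 1877 bp away. The 250 bases before the RefSeq start of *Klrk1* and of *Hcst* are shown because these are the 2 members with the largest differences. They are written 5′ to 3′ along the gene, with capitals for the RUNX motif TGTGGT or ACCACA and the T-box motif TCACAC or GTGTGA, searched on both strands.
Klrk1, chr6:129623865-129624114, minus strand: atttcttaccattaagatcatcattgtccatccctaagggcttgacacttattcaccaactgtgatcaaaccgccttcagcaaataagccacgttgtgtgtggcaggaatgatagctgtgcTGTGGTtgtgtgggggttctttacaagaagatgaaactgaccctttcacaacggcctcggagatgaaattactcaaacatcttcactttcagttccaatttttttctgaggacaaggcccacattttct
Hcst, chr7:30419855-30420104, minus strand: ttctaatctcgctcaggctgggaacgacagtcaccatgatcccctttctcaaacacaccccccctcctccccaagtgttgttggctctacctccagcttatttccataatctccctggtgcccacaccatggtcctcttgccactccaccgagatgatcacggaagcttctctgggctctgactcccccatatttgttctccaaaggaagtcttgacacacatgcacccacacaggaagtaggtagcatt

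The *Klrk1* window held a single RUNX match, whose first base lies 129 bases before the start, and no T-box match. The *Hcst* window held neither set of letters. RefSeq promoter entries (GRCm38.p6) were found for 7 of the 9 members, of which 5 held a RUNX match and 1 a T-box match. *Klrc2* and *Klre1* have 2 windows each and were counted when either matched, whereas the shares that follow are per window. Over 32851 promoter windows of the same length, 14% held the RUNX letters and 12.3% the T-box letters. *Klrk1* and *Hcst* each had 4 CpG dinucleotides in the window, against a median of 6 over these windows. These matches are descriptions of letters, not of binding.

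Expression is given as FPKM, the number of sequenced fragments scaled to transcript length and library size, so levels of different genes can be set side by side. Depth, estimated from the confidence bounds in the files, ran from 25000000 fragments in HDAC1cKO-HDAC2HET replicate 3 to 59000000 in HDAC1cKO-HDAC2HET replicate 4. The targeted gene *Hdac1* averaged 78.1 FPKM in WT and 8.30 in HDAC1cKO-HDAC2HET samples, and 75.6 in WT and 10.1 in HDAC1cKO samples. *Hdac2* averaged 59.0 in WT and 35.4 in HDAC1cKO-HDAC2HET samples. *Xist*, expressed in female cells, was at 58.9 to 65.2 FPKM in WT and 26.0 to 33.7 FPKM in HDAC1cKO-HDAC2HET samples of the first experiment. These groups did not overlap, and the reason was not tested. In the second it was at 42.9 and 33.2 FPKM in WT replicates 1 and 3 and below 0.05 in WT replicate 2 and the 3 HDAC1cKO samples, so sex and genotype were unbalanced there. The T cell markers were at 1080 FPKM or more in sum in each sample. Of the 15 NK cell markers with a value, *Ncr1* was at 0.0155 FPKM or less in each sample, *Klra8* and *Klra9* were listed at 0 in all, and 14 stayed below 1 FPKM in the first experiment and 15 in the second.

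*Klrk1* was nearly silent in WT cells and the highest of the 9 genes in HDAC1cKO-HDAC2HET cells, whereas *Hcst* moved the other way. In the 4 WT samples *Klrk1* was at 0.287, 0.358, 0.249, and 0.0794 FPKM. In the 4 HDAC1cKO-HDAC2HET samples it was at 21.1, 26.2, 22.9, and 29.1 FPKM. Each mutant sample lay far above each WT sample, and the spread within a group was small beside the gap. The mean rose from 0.243 ± 0.118 to 24.8 ± 3.54 FPKM (SD, n = 4 each), a 102-fold ratio of means. On the log2(FPKM + 0.1) scale, which understates the change of a gene this low in WT, the difference was 6.25 (SE 0.28), with an adjusted p of 3.06e-06 (limma, Benjamini-Hochberg). It ranked 7 of 15105 genes tested by fold change, and the 2-sided exact permutation test gave p = 0.0286, the smallest that 4 against 4 samples allow. The width of the confidence bounds corresponded to 2.3 to 11.3 fragments in WT and 385 to 931 in HDAC1cKO-HDAC2HET samples, so the WT level is known less well than the mutant level. Such numbers are equivalents read from the bounds, not counts of fragments. In bulk samples, fewer cells with the transcript and less of it per cell cannot be told apart.

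*Hcst* was at 20.3, 22.3, 20.4, and 21.7 FPKM in WT samples. It was at 6.14, 5.43, 4.89, and 4.91 FPKM in HDAC1cKO-HDAC2HET samples. The groups did not overlap, and all 4 mutant samples lay close together. The mean fell from 21.2 ± 0.997 to 5.34 ± 0.585 FPKM (SD, n = 4 each), 3.96-fold lower, with a log2 fold change of -1.97 (SE 0.08, adjusted p = 1.86e-06, limma). The exact permutation p was again 0.0286. The bounds corresponded to 174 to 253 fragments in WT and 27.4 to 68.3 in mutant samples.

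**Figure D1:**
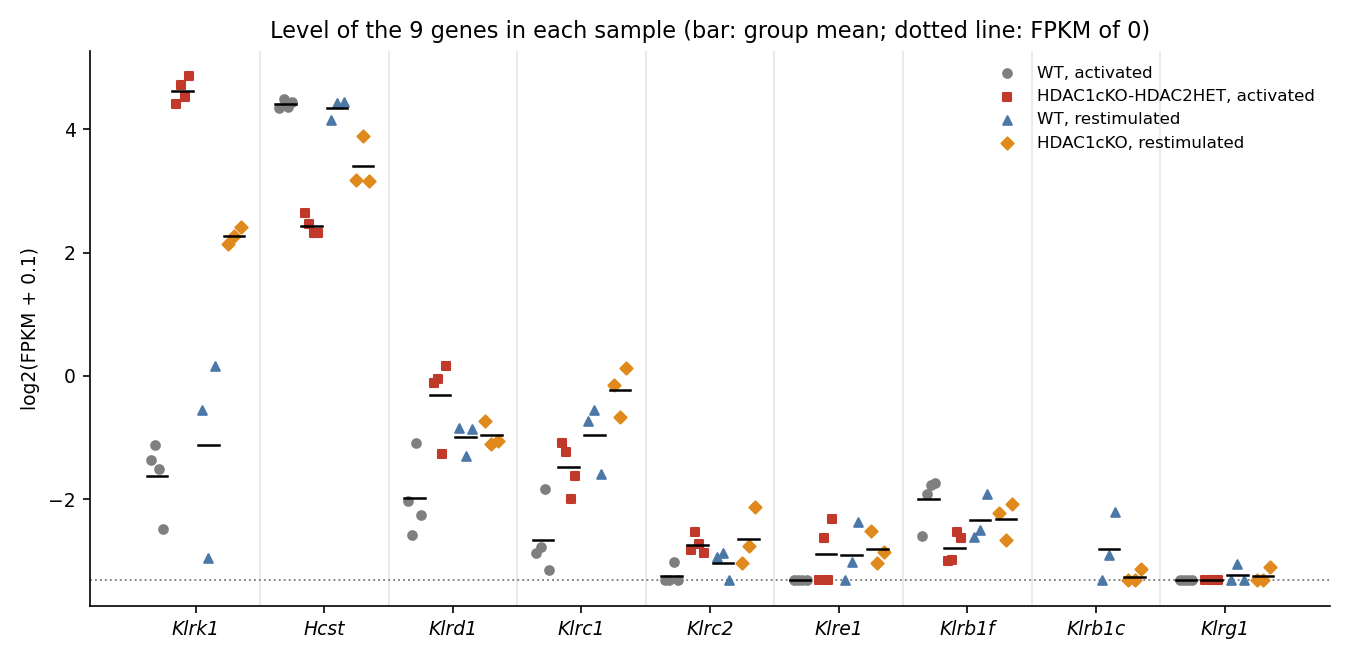
Level of each of the 9 genes in each of the 14 samples, as log2(FPKM + 0.1) on the vertical axis, with points for samples, a bar for the group mean, and a dotted line at an FPKM of 0. *Klrk1* rose from below 0.4 FPKM in WT to above 21 in HDAC1cKO-HDAC2HET samples while *Hcst* fell from above 20 to below 6.2, and the other members reached at most 1.01 FPKM. *Klrb1c* has no usable locus in the first experiment.

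The CD94 and NKG2A pair also rose in HDAC1cKO-HDAC2HET cells, from much lower levels. *Klrd1* was at 0.143, 0.0669, 0.372, and 0.109 FPKM in WT samples. It was at 0.826, 0.868, 0.313, and 1.01 FPKM in HDAC1cKO-HDAC2HET samples. Of these, 3 lay above all WT samples, and replicate 3, the shallowest library, lay below WT replicate 3, so the groups overlapped. The log2 fold change was 1.67 (SE 0.42, adjusted p = 0.0112, limma), and the exact permutation p was 0.0571. With 1 FPKM added in place of 0.1 the log2 fold change of *Klrd1* was 0.57, under a fold of 2, and the call was lost. *Klrc1* was at 0.0364, 0.0449, 0.178, and 0.0123 FPKM in WT and at 0.370, 0.324, 0.151, and 0.223 FPKM in HDAC1cKO-HDAC2HET samples. Here too mutant replicate 3 lay below WT replicate 3, and no other samples crossed. The log2 fold change was 1.18 (SE 0.34, adjusted p = 0.0200, limma), with an exact permutation p of 0.0571. The WT mean of *Klrc1*, 0.068 FPKM, lay under the 0.1 FPKM average needed for testing, so it was tested only through the mutant samples. Without WT replicate 1 or 4, or without mutant replicate 1 or 2, the adjusted p of *Klrc1* was 0.0510 to 0.0537 and the call was lost. The bounds of *Klrc1* corresponded to 8.6 fragments or fewer in each sample of this experiment, and reads shared with *Klrc2* and its close relatives can be split among them.

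Of the NKR-P1 genes, *Klrb1f* was at 0.0656, 0.165, 0.194, and 0.201 FPKM in WT and 0.0244, 0.0256, 0.0727, and 0.0614 FPKM in HDAC1cKO-HDAC2HET samples. WT replicate 1 lay within the mutant range, and the other WT samples lay above it. Its log2 fold change of -0.79 (SE 0.25, adjusted p = 0.0312, limma) did not reach a fold of 2. *Klrb1c*, which encodes the antigen used to deplete NK1.1+ cells, had no locus that met the 0.8 share in this experiment, since the libraries joined it with *Klrb1b* in a locus at chr6:128778485-128826331 that shares 0.224 of the joint span. That joint locus was at 0.0401 to 0.0939 FPKM in WT, and at 0 in 3 mutant samples and 0.0198 in the other.

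The remaining members were at 0 FPKM or close to it. *Klrg1* was listed at 0 in all 8 samples of the first experiment. *Klrc2* was at 0 in 3 WT samples and 0.0233 FPKM in the other, and at 0.0406, 0.0721, 0.0514, and 0.0358 FPKM in the mutant samples. All 4 mutant values lay above all WT values, each with bounds as wide as for less than 1 fragment. The gene was left out of the fit because unnamed loci were listed at 0. *Klre1*, a receptor chain that pairs with the *Klri1* and *Klri2* products, was listed at 0 in the WT samples and in 2 mutant samples, and at 0.0620 and 0.0998 FPKM in the others.

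Of the 9 members, 5 passed the filter on low values in the first experiment and 4 of these were called, with a fold of 2 or more besides an adjusted p no higher than 0.05, *Klrk1*, *Klrd1*, and *Klrc1* higher and *Hcst* lower. Over all 15105 genes tested, 11.2% were called, 5.6% higher and 5.55% lower. By the adjusted p alone all 5 passed, as did 51.8% of all genes. The median log2 fold change of all genes was -0.04. In 23.4% of all genes the mutant samples lay wholly above WT and in 26.9% wholly below, against *Klrk1* above and *Hcst* below among the 5. A member with low values could pass the filter through the group where it is high. *Klrc1*, at a mean of 0.068 FPKM in WT, passed through the mutants, and *Klrb1f*, at 0.0460 FPKM in the mutants, passed through WT. These counts are therefore read only beside the levels above.

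In the second experiment, with HDAC1 deleted and both *Hdac2* alleles intact, *Klrk1* and *Hcst* again lay on opposite sides of WT, with smaller differences that did not pass the adjusted test. *Klrk1* was at 0.583, 0.0288, and 1.01 FPKM in WT and at 4.31, 4.69, and 5.21 FPKM in HDAC1cKO samples. All 3 mutant samples lay above all WT samples, and the WT samples differed widely among themselves. The means were 0.542 ± 0.494 and 4.74 ± 0.451 FPKM (SD, n = 3 each), an 8.74-fold ratio, with a log2 difference of 3.39 (SE 0.78, adjusted p = 0.197, limma). The exact permutation p was 0.1, the smallest that 3 against 3 samples allow. The lowest WT value belonged to replicate 2, the WT sample without *Xist*, as the HDAC1cKO samples are. Against that sample alone *Klrk1* was higher in 3 of 3 mutant samples. With sex as a covariate the log2 difference was 5.23 (SE 0.35, adjusted p = 0.0131, limma), but that fit sets the 3 HDAC1cKO samples against WT replicate 2 alone and assumes that this sample varies like the others. Without WT replicate 2 the difference was 2.47 (adjusted p = 0.0935, limma). The part of sex in these values was not tested beyond this.

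*Hcst* was at 17.7, 21.5, and 21.6 FPKM in WT and 8.91, 14.7, and 8.81 FPKM in HDAC1cKO samples. The groups did not overlap, with mutant replicate 2 between the other mutant samples and WT. The means of 20.2 ± 2.19 and 10.8 ± 3.36 FPKM (SD, n = 3 each) differed by -0.94 on the log2 scale (SE 0.22, adjusted p = 0.197, limma). The exact permutation p was 0.1, and WT replicate 2 gave the middle WT value.

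*Klrd1* was at 0.459, 0.308, and 0.453 FPKM in WT and 0.501, 0.366, and 0.381 FPKM in HDAC1cKO samples, with overlapping groups and a log2 difference of 0.03 (SE 0.26, adjusted p = 0.970, limma). *Klrc1* was at 0.50, 0.580, and 0.229 FPKM in WT and 0.80, 0.526, and 0.991 FPKM in HDAC1cKO samples. Its groups overlapped through mutant replicate 2, and the log2 difference was 0.73 (adjusted p = 0.429, limma). *Klrb1f* averaged 0.102 FPKM in either group. *Klrc2*, *Klre1*, *Klrb1c*, and *Klrg1* stayed at 0.128 FPKM or less in all 6 samples, and *Klrb1c* was highest in WT replicate 3, at 0.115 FPKM. In this experiment 5 of the 9 members were tested and limma called 0, where 0.0647% of 13911 genes were called. At an unadjusted p under 0.05, 2 members passed, *Klrk1* and *Hcst*, against 14.4% of all genes. *Klrk1* lay wholly above WT as did 9.98% of all genes, *Hcst* wholly below as did 12.3%, and the median log2 fold change of all genes was -0.03.

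**Figure D2:**
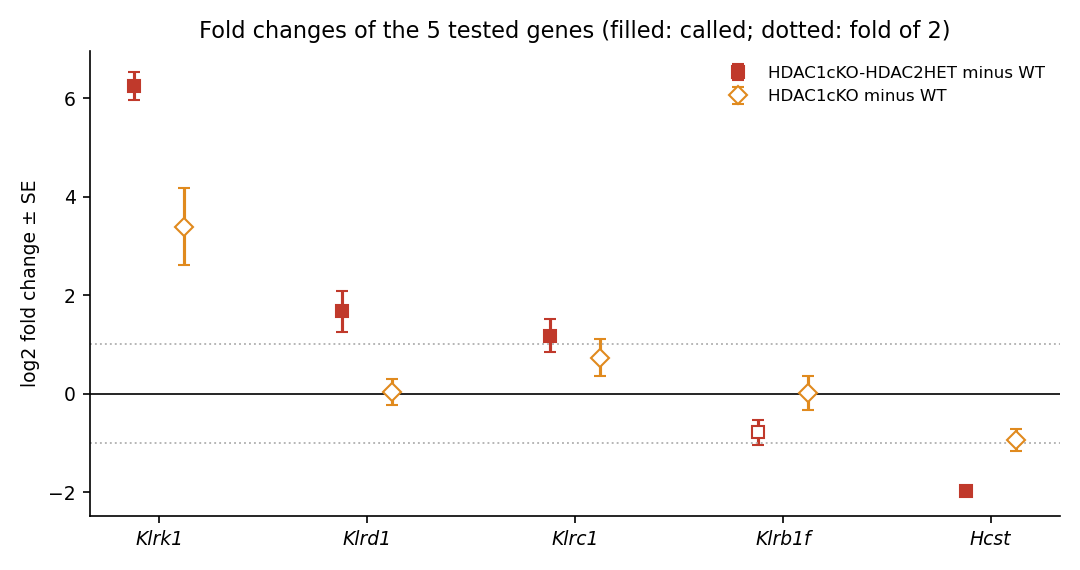
Log2 fold change of mutant against WT, with its SE, for the 5 members that passed the filter in each experiment, with filled symbols for called genes and dotted lines at a fold of 2. *Klrk1* was at 6.25 and 3.39 and *Hcst* at -1.97 and -0.94 in the HDAC1cKO-HDAC2HET and HDAC1cKO comparisons, and *Klrd1* was at 1.67 and 0.03.

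Whether the fold changes differed between the experiments was tested directly, over 12350 genes and all 14 samples. The experiments also differ in how loci were listed, with 36704 to 38572 named loci per sample in the first and 24363 to 25130 in the second. Culture, genotype, and this listing change together between the experiments and cannot be told apart. The fold change of *Klrk1* was larger in the first by 2.86 on the log2 scale (SE 0.80, adjusted p = 0.0317, limma) and that of *Hcst* was more negative by -1.04 (SE 0.22, adjusted p = 0.00876, limma). For *Klrd1* the difference was 1.64 (adjusted p = 0.0600), for *Klrc1* 0.44 (adjusted p = 0.621), and for *Klrb1f* -0.80 (adjusted p = 0.204), all by limma and none called. So 2 of 5 tested members were called, where 15.7% of all genes were. The *Klrk1* call was lost in 10 of 14 fits that left out a single sample, where the adjusted p reached 0.0658. It was kept without WT replicate 1 or 2 or HDAC1cKO-HDAC2HET replicate 1 of the first experiment, and without WT replicate 2 of the second. With sex as a covariate the *Klrk1* difference was 1.02 (adjusted p = 0.251, limma) and the *Hcst* difference -0.95 (adjusted p = 0.0625, limma), with WT replicate 2 again the only WT sample of the second experiment behind the genotype term.

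Receptor and adaptor were also set against each other within each sample. In WT samples of the first experiment *Hcst* exceeded *Klrk1* by 62.3 to 274 times, while in HDAC1cKO-HDAC2HET samples *Klrk1* exceeded *Hcst* by 3.44 to 5.92 times. The order of receptor and adaptor was therefore the reverse of WT in all 4 mutant samples. The mean log2 ratio of *Klrk1* to *Hcst*, each with 0.1 FPKM added, was -6.03 ± 0.61 in WT and 2.19 ± 0.32 in mutant samples (SD, n = 4 each), a difference of 8.22 (2-sided exact permutation p = 0.0286). In the second experiment *Hcst* exceeded *Klrk1* in all 6 samples, by 21.3 to 746 times in WT and by 1.69 to 3.13 times in HDAC1cKO samples. The mean log2 ratio was -5.46 ± 1.68 in WT and -1.13 ± 0.45 in HDAC1cKO samples (SD, n = 3 each), a difference of 4.32. The exact permutation p was 0.1, the smallest possible here.

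**Figure D3:**
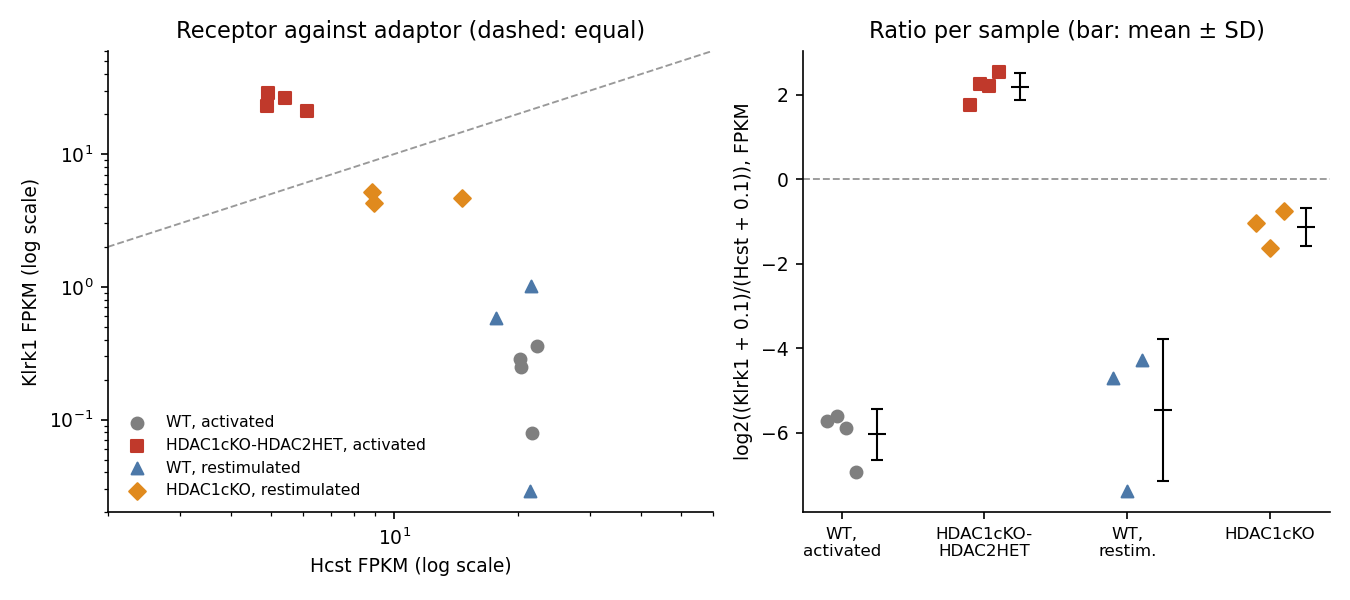
Left, *Klrk1* against *Hcst* FPKM in the 14 samples on logarithmic axes, with a dashed line where they are equal. Right, the log2 ratio of the genes in each sample, with mean ± SD. Only the 4 HDAC1cKO-HDAC2HET samples lie above the line, at ratios of 3.44 to 5.92, and the HDAC1cKO samples lie between them and WT.

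Between the 3′ ends of *Klrk1* and *Klrd1*, an interval of 11547 bp without an annotated gene, each HDAC1cKO-HDAC2HET sample held 2 or 3 assembled loci without a name, 10 in all, at 1.03 to 2.83 FPKM. They lay between chr6:129604652 and chr6:129609963, 13901 to 19212 bp from the *Klrk1* start in the direction of its transcription. No such locus was assembled in any WT or HDAC1cKO sample. The highest of them reached 7.38% to 13.1% of the *Klrk1* FPKM of its sample, and in mutant replicate 1 the *Klrk1* locus itself ran 2317 bp past the annotated end. Assembly depends on the number of reads, so a locus not listed is not a transcript shown to be absent.

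Between the starts of *Hcst* and *Nfkbid*, the 4 WT samples of the first experiment held 1 to 3 unnamed loci each at 0.747 to 3.38 FPKM, and none of the 4 HDAC1cKO-HDAC2HET samples held any. Among the restimulated samples, each HDAC1cKO sample held 2, WT replicate 3 held 3, and WT replicates 1 and 2 held none. *Nfkbid*, which was looked at after its values were seen, averaged 31.3 ± 2.18 FPKM in WT and 17 ± 1.52 in HDAC1cKO-HDAC2HET samples, a log2 fold change of -0.88 (SE 0.07, adjusted p = 4.02e-05, limma) that did not reach a fold of 2. In the HDAC1cKO comparison its log2 fold change was -0.17 (adjusted p = 0.694, limma).

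**Figure D4:**
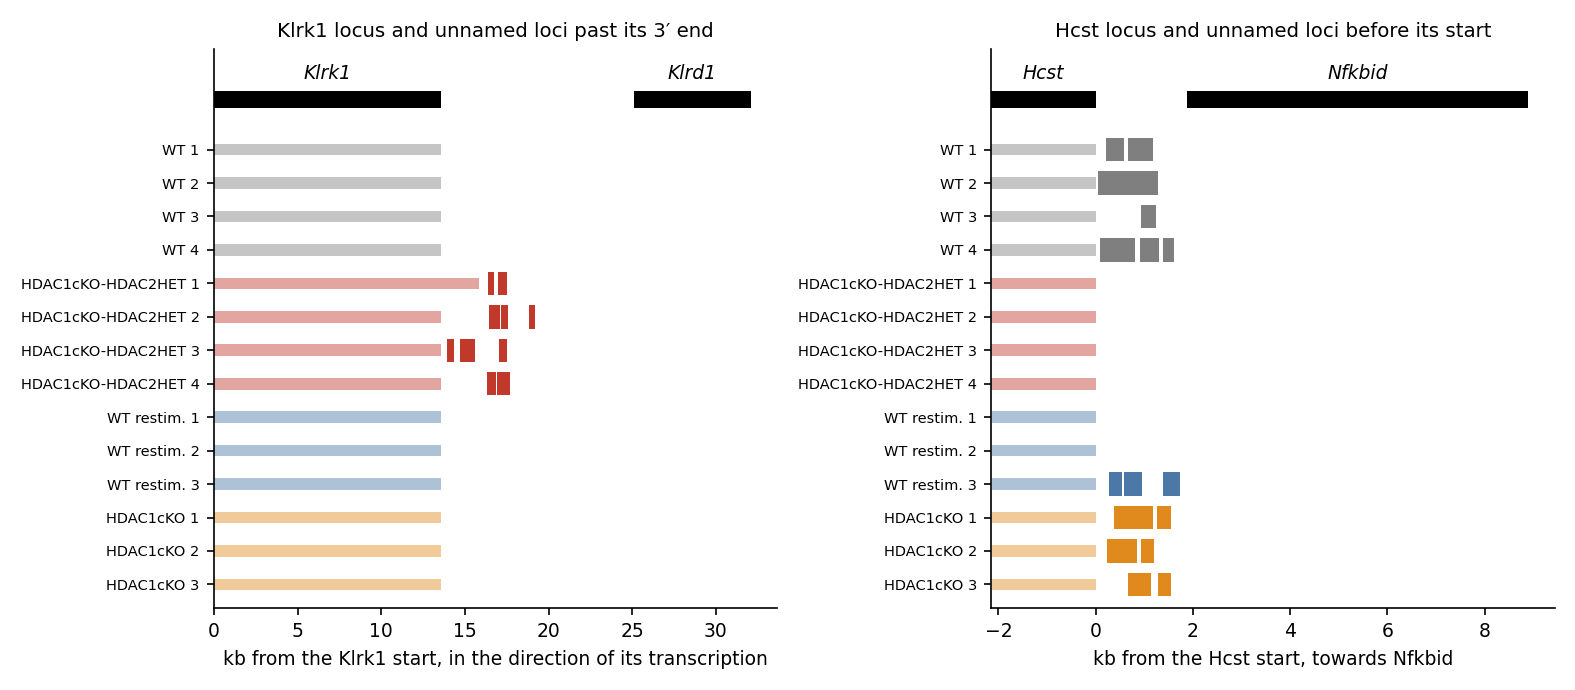
Left, assembled *Klrk1* locus (pale bars) and unnamed loci past its 3′ end (solid bars) in each sample, by kb from the *Klrk1* start. Right, *Hcst* locus and unnamed loci before its start, by kb from the *Hcst* start towards *Nfkbid*. Black bars are the annotated genes, the loci past *Klrk1* appear in the 4 HDAC1cKO-HDAC2HET samples only, and those before *Hcst* are missing from the same 4 samples and from WT replicates 1 and 2 of the second experiment.

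Of the other adaptors, *Tyrobp* was listed at 0 in all 8 samples of the first experiment and was at 0.0757 FPKM or less in the second. *Cd247*, the CD3ζ chain, averaged 75.4 FPKM in WT and 132.6 in HDAC1cKO-HDAC2HET samples (log2 fold change 0.82, adjusted p = 1.32e-05, limma, under a fold of 2), and 80.3 and 141.2 FPKM in the second experiment (0.82, adjusted p = 0.187). *Fcer1g* averaged 0.167 FPKM or less in each group. Neither *Cd247* nor *Fcer1g* was called in either experiment. The median over both genes was a log2 fold change of 0.30 in the first experiment and 0.58 in the second.

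Among 18 signalling genes downstream of such receptors, 16 were tested in the first experiment. Of these, 1 was called higher and 2 lower, and their median log2 fold change was -0.10. Over all genes tested, 5.6% were called higher and 5.55% lower. By the adjusted p alone, 5 signalling genes were higher and 7 lower, where 51.8% of all genes passed. *Plcg2*, a phospholipase C, rose from 0.657 ± 0.0750 to 2.41 ± 0.219 FPKM (log2 fold change 1.73, adjusted p = 9.37e-06). *Lcp2*, which encodes the scaffold SLP-76, fell from 176 ± 6.86 to 86.6 ± 6.01 FPKM (-1.02, adjusted p = 5.43e-06), and *Jak3*, the kinase of common γ chain cytokine receptors, fell from 91.2 ± 3.39 to 36.6 ± 2.2 FPKM (-1.31, adjusted p = 1.52e-06), all SD with n = 4 and by limma. *Grb2* and *Pik3r1*, whose products bind DAP10, were at 0.17 and 0.31 and not called. For HDAC1cKO 17 were tested, limma called 0, where 0.0647% of all genes were called, and the median of the 17 was -0.02.

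Ligands of the receptors are expressed by T cells as well. Of the NKG2D ligands 3 had usable values in the first experiment and none was called. *Raet1e* and *Ulbp1* averaged 3.10 and 6.94 FPKM in HDAC1cKO-HDAC2HET samples, with log2 fold changes of 0.02 and -0.03, and *H60c* was at -0.96 (adjusted p = 0.0139, limma), just under a fold of 2. The *Raet1e* span overlaps those of *H60b* and *Raet1d*, so its values are uncertain to that extent. With HDAC1 alone deleted 2 of the ligands were tested and limma called 0, with *Raet1e* at 2.11 (SE 0.91, adjusted p = 0.365) and overlapping groups. *H2-T23*, which encodes Qa-1, the ligand of CD94 with NKG2A or NKG2C, averaged 128.9 ± 15.8 FPKM in WT and 238.0 ± 23.1 in HDAC1cKO-HDAC2HET samples, a log2 fold change of 0.89 (adjusted p = 2.04e-04, limma) that did not reach a fold of 2. In the HDAC1cKO experiment WT and mutant means were 151.1 and 246.7 FPKM (0.75, adjusted p = 0.251), and the groups did not overlap in either. *Clec2i*, which encodes a ligand of NKR-P1F, fell from 10.3 ± 2.18 to 3.00 ± 0.258 FPKM (-1.73, adjusted p = 4.01e-05, limma) in the first experiment, and was at 5.13 and 3.46 FPKM in the second (-0.55, adjusted p = 0.251). It was the called gene among 2 tested *Clec2* genes. The cadherin ligands of KLRG1 with a value summed to 0.112 FPKM or less in each sample.

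**Figure D5:**
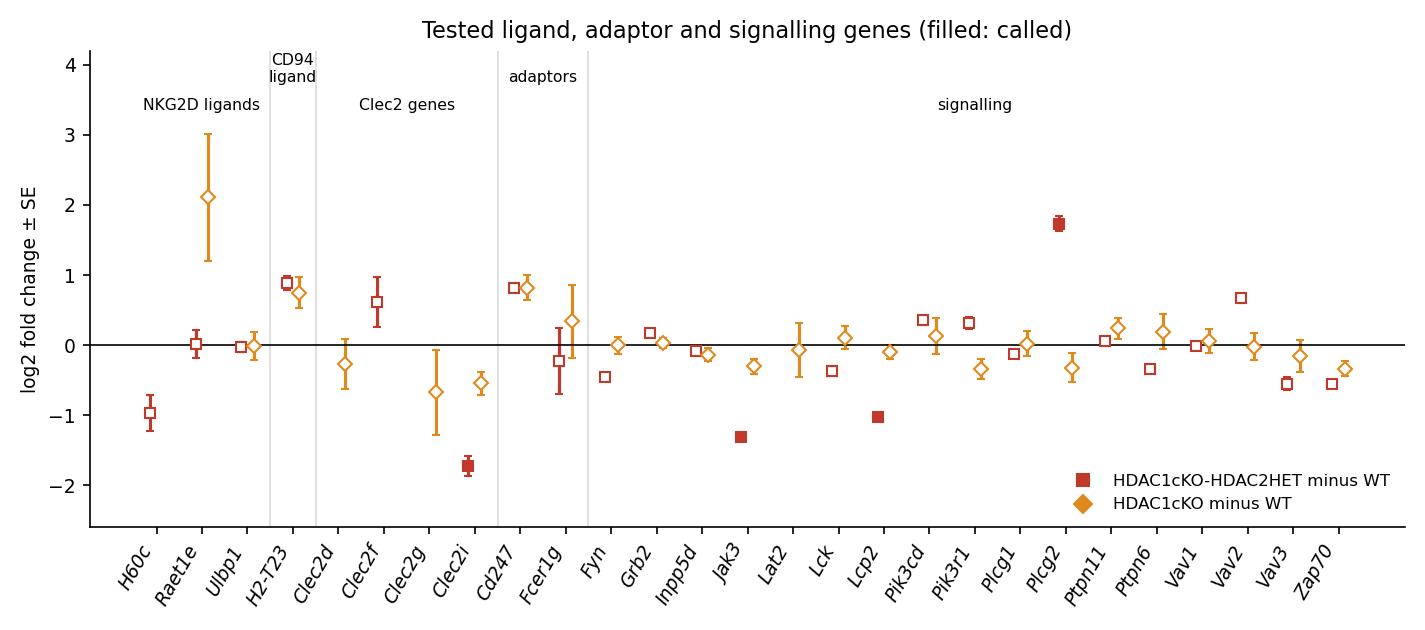
Log2 fold change of mutant against WT, with its SE, for the tested NKG2D ligands, the CD94 ligand *H2-T23*, the *Clec2* genes, other adaptors, and signalling genes, with filled symbols for called genes. The called genes were *Clec2i*, *Jak3*, and *Lcp2*, lower, and *Plcg2*, higher, all in the HDAC1cKO-HDAC2HET comparison.

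Of 19 other *Klr* genes, 17 had usable values in the first experiment and 18 in the second, all below 1 FPKM in each sample. Only *Klrg2* passed the filter, and it rose from 0.0903 ± 0.0210 to 0.452 ± 0.109 FPKM (SD, n = 4 each) in HDAC1cKO-HDAC2HET samples (log2 fold change 1.52, adjusted p = 3.37e-04, limma). Its WT mean lay under the 0.1 FPKM of the filter, so it was tested there only through the mutant samples where it is high. Between WT and HDAC1cKO samples it averaged 0.259 and 0.353 FPKM (0.35, adjusted p = 0.560).

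Markers of the CD8 lineage and of other cells moved beside these results. The CD8 T cell markers *Cd8a* and *Cd8b1* summed to 3.28 to 5.96 FPKM in WT and 11.7 to 15.2 in HDAC1cKO-HDAC2HET samples, and both were called higher, with *Cd8a* at 0.439 FPKM on average in the mutants. *Cd8a* averaged 0.0581 FPKM in WT, under the filter of 0.1 FPKM, so it was tested only through the mutants. Both CD8 markers together summed to 3.8 to 4.86 and 6.52 to 7.30 FPKM in the second experiment. The paper reports the *Cd8a* rise, at very low levels, in HDAC1cKO-HDAC2HET CD4+ T cells, with CD8α protein undetectable or low by flow cytometry. The NK cell markers summed to 0.423 to 1.14 FPKM in WT and 0.564 to 1.61 in HDAC1cKO-HDAC2HET samples, with *Gzma* the called gene of 3 tested, and to 0.648 to 0.969 and 0.322 to 0.993 FPKM in the second experiment. *Gzma* averaged 0.0509 FPKM in WT of the first experiment and likewise passed the filter only through the mutants. The NK marker sums lie below the *Klrk1* level of each HDAC1cKO-HDAC2HET sample, but a marker sum does not measure how much *Klrk1* RNA such cells would bring. The B cell markers summed to 0.502 to 0.945 FPKM in WT and 2.79 to 4.4 in HDAC1cKO-HDAC2HET samples, where *Cd79b* alone of 2 tested was called. Of the gamma-delta T cell markers *Tcrg-C1* was called lower, and the sum went from 0.941 to 2.23 FPKM in WT to 0.209 to 0.472 in HDAC1cKO-HDAC2HET samples. *Tcrg-C1* averaged 0.0516 FPKM in these mutants, under the filter, which it passed through WT. Of 5 myeloid markers only 1 could be tested in the first experiment and 2 in the second, and none was called. *Zbtb16*, of innate-like T cells, stayed at 0.0579 FPKM or less. The part of these other cells in the members' values was not tested.

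The genes most like *Klrk1* across the 14 samples, by Pearson's r of log2(FPKM + 0.1) over 12350 genes, were *Shisal2b* (0.978), *Carmil1* (0.976), *Lap3* (0.975), *Gm26530* (0.972), and *Tmem35a* (0.972). Those most like *Hcst* were *Tmem106c* (0.986), *Acp1* (0.978), *Pdlim2* (0.977), *B4galnt4* (0.975), and *Slc25a45* (0.974). These values describe the same samples and share their groups, and no test was made of them. *Tmem35a* averaged 0.520 FPKM in WT, 6.43 in HDAC1cKO-HDAC2HET, and 2.42 in HDAC1cKO samples, in the same order as *Klrk1*. *Slc25a45*, a mitochondrial carrier family gene, averaged 4.85, 0.744, and 1.95 FPKM in the same groups, with 4.06 FPKM in WT of the second experiment, in the order of *Hcst*.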

How the data were processed

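For the first experiment the authors sequenced TruSeq Stranded mRNA libraries, mapped reads to mm10 with TopHat, and assembled each library with Cufflinks. How the libraries of the second experiment were made is not described in the paper. The deposited files of both experiments hold FPKM with confidence bounds and no counts. STAR 2.5.2b, Subread 1.5.1, and R 3.4, which the submitters' processing notes also name, do not appear in the headers of these files. Unnamed loci were matched to GENCODE spans of GRCm38 at a share of at least 0.8, and a gene with an unnamed locus at 0 was left out of the fits. The limma package (3.58.1, R 4.3.3) was run per experiment on log2(FPKM + 0.1), trended, with Benjamini-Hochberg correction over genes averaging 0.1 FPKM or more. Calls needed a fold of 2 or more and an adjusted p no higher than 0.05, and the difference between experiments needed the latter alone. The *Klrk1* to *Hcst* ratio and single members were compared by exact permutation (2-sided, 70 or 20 arrangements). Fragment numbers come from the bounds, and 70.2% to 79.1% of low values were whole within 0.05, as checked in named genes with a single transcript. For other loci they are equivalents, not counts. *Hdac1*, at 78.8 and 79.6 FPKM in WT replicates 1 and 2 of the first experiment, gave 1823 and 6820. The first experiment had 4 independent cell preparations per genotype, all from 1 day, and the paper gives at least 4 mice for its *Crtam* values from this experiment. Whether each preparation came from 1 mouse is not given in the sources used here, nor is the number of animals in the second experiment. The scripts were tested on simulated data. Named are all 9 members, the genes of fixed lists that were called or whose role is described, and the 5 genes most like *Klrk1* and *Hcst*. The members and lists were chosen with earlier results of these data known. Figures were drawn with matplotlib 3.10.9.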

Additional observations from a re-analysis of the deposited data

Results flagged for a closer look

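The fold change of *Klrk1* differed between the experiments by 2.86 on the log2 scale and that of *Hcst* by -1.04, by the limma contrast over all 14 samples (adjusted p = 0.0317 and 0.00876). The *Klrk1* call was lost in 10 of 14 fits that left out a single sample. Its difference was 1.02 with sex as a covariate, where a single WT sample of the second experiment is behind the genotype term. *Klrk1* was higher in 4 of 4 HDAC1cKO-HDAC2HET and 3 of 3 HDAC1cKO samples than in any WT sample of the same experiment, and *Hcst* was lower in the same samples.

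The unnamed loci between *Klrk1* and *Klrd1* were seen in data that no comparison used, with up to 2.83 FPKM in HDAC1cKO-HDAC2HET samples and none assembled in WT samples.

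Of 15 groups of 4 samples that were checked, 1 had a sample far from the others, *Klrc2* in WT of the first experiment, where replicate 3 was at 0.0233 FPKM and the others at 0. About 1 in 20 groups would be marked by chance, and the value has bounds as wide as for less than 1 fragment.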

How the results depend on the processing

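*Klrk1* and *Hcst* kept their direction under every alternative run, and in the HDAC1cKO-HDAC2HET comparison their calls as well wherever they could be fitted. There the count of called members, 4, became 2 with a pseudocount of 1, with a mean FPKM of at least 1, or with a replicate block, *Klrd1* and *Klrc1* being those lost (adjusted p = 0.0587 and 0.0691 with the block, limma). With loci listed by name only it became 0, since *Klrb1f* was then the 1 member tested. Over all genes the count of 1685 became 740 with a pseudocount of 1, 1029 with the stricter filter, and 413 with named loci. In the HDAC1cKO comparison members called rose from 0 to 1 with sex as a covariate, where WT replicate 2 is the only WT sample behind the genotype term, or with both experiments in 1 fit. The count over all genes, 9, became 14 with the stricter filter or robust variances, 22 with sample weights, 5 with a replicate block, 64 with sex, 277 in the joint fit, and 10 (without HDAC1cKO replicate 3) to 51 (without WT replicate 3) when samples were left out in turn. For the difference between experiments the 2 called members became 1 with a pseudocount of 0.01, a replicate block, or separate spreads, 0 with sex or named loci, and 1 to 2 when samples were left out. The count over all genes, 1938, became 1217 with sex, 1128 with separate spreads, and 54 with named loci. Directions turned where values lay near 0: *Klrb1f* in the HDAC1cKO comparison was at -0.0046 with sample weights and -0.12 to 0.18 when samples were left out, *Klrd1* there was at -0.12 to 0.11, and the *Klrc1* difference was at -0.057 with a pseudocount of 1. The causes were not tested.

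Samples with the same number did not deviate together (r = -0.02 to 0.05), so the numbers were not taken as pairs. With the replicate block the *Klrk1* to *Hcst* difference stayed at 8.22 with an exact sign-flip p of 0.125, the smallest that 4 pairs allow. The ratio could not be computed from named loci, because *Klrk1* is listed by name in no library, and sex could not be fitted in the first experiment, where all samples had *Xist*. *Klrd1*, *Klrc1*, and the lower members have low values with wide bounds, so small changes in them were not detectable.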
